A study of Saccharomyces cerevisiae with 15 samples.

Results

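Mitochondria carry their own ribosomes, which translate the few proteins encoded by mitochondrial DNA, most of them core subunits of the respiratory chain and ATP synthase. The ribosomal RNAs of this particle come from mitochondrial DNA, but nearly all of its proteins are encoded in the nucleus, made in the cytosol and imported. Some descend from bacterial ribosomal proteins and others have no bacterial counterpart, and in budding yeast the genes are regulated apart from those of cytoplasmic ribosomal proteins. The transcripts of these genes were followed here in cells that lacked Gcn5p, the histone acetyltransferase of the SAGA complex, or that carried a dominant inactive form of it.

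The genes were taken by name from the gene table of the array: symbols formed of MRPL, MRPS, RSM or MRP with a number, without MRP8, together with IMG1 and IMG2, with the S. cerevisiae probe set of each gene. This gave 67 of 5449 measured genes. Of these, 39 encode proteins of the large subunit and 28 proteins of the small subunit, and 41 have a bacterial counterpart, 25 have none and RSM22 was left unclassified. They lie on 14 chromosomes of assembly R64, with 12 on chromosome IV and 9 on chromosome XIV. Only one pair were direct neighbours, MRPS12 (chromosome XIV, 694361 to 694822) and RSM19 (695052 to 695327). The open reading frames were short, with a median of 699 bases against 1236 bases for all measured genes. Each had 1 probe set, and all 67 had a mean signal above the 95th percentile of the S. pombe probe sets of the same array (5.18), probe sets for another species that stand here for background. Mean signals ran between 7.60 for MRPL4 and 12.50 for MRPS12 on the log2 scale. MRPS35 and RSM23 were the next dimmest and RSM18 and MRPL38 the next brightest, although signals of different probe sets are not levels that can be ranked.

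RNA of S. cerevisiae S288C cells from 5 strains, with 3 biological replicates each, was hybridised to 15 Affymetrix Yeast 2.0 arrays. The gcn5 null strain had GCN5 replaced by a hygromycin B resistance gene and held the control plasmid. In 3 strains the wild-type background carried gcn5-F221A, a catalytically inactive and dominant allele, on a centromeric plasmid behind mutant TEF promoters, whose strengths were 0.32 for the weakest, 0.68 and 0.95. Native GCN5 was still present in these cells, so that the mutant protein competed with the native one. The wild-type strain held the control plasmid, and all 5 strains grew in minimal glucose medium with G418. GCN5 itself, which the probe set cannot separate from the plasmid copy, read 5.78 ± 0.05 in gcn5 null cells and 8.92 ± 0.06 in wild-type cells. It read 11.50 ± 0.07, 11.90 ± 0.16 and 13.13 ± 0.06 in the strains of strength 0.32, of 0.68 and of 0.95 (SD, n = 3 each).

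Arrays differed in a measure of RNA integrity and labelling, the mean signal of probe sets at the 5′ end of 7 control transcripts minus that of probe sets at their 3′ end. This 5′ minus 3′ signal averaged -3.29 ± 0.21 in gcn5 null and -3.85 ± 0.20 in wild-type, where lower values mean relatively less 5′ signal. It averaged -4.00 ± 0.40, -3.34 ± 0.46 and -3.55 ± 0.35 in the strains of strength 0.32, of 0.68 and of 0.95 (SD, n = 3 each). The gcn5 null arrays (-3.49 to -3.08) did not overlap the wild-type arrays (-4.06 to -3.67). The lowest array of each gcn5-F221A strain was replicate 3 at 0.32 (-4.47), replicate 2 at 0.68 (-3.87) and replicate 1 at 0.95 (-3.87). This signal moved with many of the genes described here, as set out further on, and between gcn5 null and wild-type the signal and the strain cannot be told apart.

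The first comparison asked how the mitochondrial ribosomal protein genes stood after GCN5 was deleted. Few passed the test: 9 of 67 (13.4%) differed between gcn5 null and wild-type at an adjusted p under 0.05, where 41.0% of all 5449 genes did. In gcn5 null 4 were higher, against 18.4% of all genes, and 5 were lower, against 22.6% of all genes. The median difference of the 67 genes was 0.01 on the log2 scale, and that of all genes -0.01. Every one of the 67 lay between -0.87 and 0.81, and 60 lay within 0.5 of zero. The 95% intervals of 62 genes lay wholly within a 2-fold change in either direction, and those of the other 5 reached past it, so that for 62 genes a larger change was outside the interval. These intervals were wide, with a median half-width of 0.34 against 0.27 for all genes. They rest on a spread pooled over all 5 strains, not on gcn5 null and wild-type alone. The mean SD of the 67 genes was 0.11 in gcn5 null and 0.15 in wild-type. It was 0.21, 0.24 and 0.21 in the strains of strength 0.32, of 0.68 and of 0.95. Counts from only the arrays compared are given in the closing section.

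In the model of strain means alone, the genes that fell in gcn5 null all encode proteins of the large subunit. MRPL31 (YKL138C, chromosome XI, 185286 to 185681), whose product has no bacterial counterpart, read 10.31, 10.44 and 10.42 in gcn5 null arrays against 11.23, 11.14 and 11.42 in wild-type arrays. The 3 gcn5 null values lay below all wild-type values, and the difference was -0.87 ± 0.12 (SE; limma, adjusted p = 0.000156), a ratio of 0.546. MRP49 (YKL167C, chromosome XI, 133721 to 134134), a protein that mitochondrial translation can do without, read 10.68, 10.80 and 10.73 in gcn5 null and 11.42, 11.26 and 11.34 in wild-type. Its strains again did not overlap, with a difference of -0.60 ± 0.11 (SE; limma, adjusted p = 0.000831). MRPL36 (YBR122C, chromosome II, 483970 to 484503), the counterpart of bacterial L31, read 11.57, 11.64 and 11.53 in gcn5 null and 11.84, 11.84 and 11.97 in wild-type. Its change was small and its replicates were close, with a difference of -0.30 ± 0.07 (SE; limma, adjusted p = 0.00414).

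MRPL25 (YGR076C) and MRPL20 (YKR085C), both without bacterial counterparts, completed the group that fell. MRPL25, also known as AFO1, read 10.22, 10.44 and 10.35 in gcn5 null and 10.98, 10.73 and 10.86 in wild-type. The difference was -0.52 ± 0.15 (SE; limma, adjusted p = 0.0173). MRPL20 read 10.56, 10.70 and 10.55 in gcn5 null and 11.31, 10.98 and 10.94 in wild-type. The difference was -0.47 ± 0.17 (SE; limma, adjusted p = 0.0369), and the strains did not overlap for either gene. These were the less firm calls of the group. With the 5′ minus 3′ signal as a covariate, MRPL25 stood at -0.24 (limma, adjusted p = 0.0873) and MRPL20 at -0.26 (limma, adjusted p = 0.213). With every array centred on the median of S. cerevisiae genes MRPL20 stood at -0.44 (limma, adjusted p = 0.0512).

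Of the 4 genes that rose in gcn5 null, MRP20, MRPL22 and MRPL24 belong to the large subunit. MRP20 (YDR405W, chromosome IV, 1277646 to 1278437) is the counterpart of bacterial L23, which sits at the mouth of the exit tunnel for the new peptide. It read 10.18, 10.04 and 9.61 in gcn5 null and 9.13, 9.09 and 9.19 in wild-type, with a difference of 0.81 ± 0.22 (SE; limma, adjusted p = 0.00926), a ratio of 1.75. The gcn5 null replicates were spread more widely than the wild-type replicates, which lay within 0.1 of each other. MRPL22 (YNL177C, chromosome XIV, 303686 to 304615), the counterpart of L22 in the wall of the same tunnel, read 9.92, 9.86 and 9.64 in gcn5 null and 9.02, 9.26 and 9.38 in wild-type. The difference was 0.58 ± 0.17 (SE; limma, adjusted p = 0.0168). MRPL24 (YMR193W, chromosome XIII, 650036 to 650812), the counterpart of bacterial L28, read 9.41, 9.23 and 9.23 in gcn5 null and 8.59, 8.77 and 8.83 in wild-type, with a difference of 0.56 ± 0.11 (SE; limma, adjusted p = 0.00183). With the 5′ minus 3′ signal as a covariate MRP20 stood at 0.38 (limma, adjusted p = 0.0175) and MRPL22 at 0.23 (limma, adjusted p = 0.0404), both still passing.

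The remaining rise was in the small subunit. RSM28 (YDR494W, chromosome IV, 1436930 to 1438015), which has no bacterial counterpart, read 9.18, 8.88 and 8.85 in gcn5 null and 8.67, 8.77 and 8.66 in wild-type. The lowest gcn5 null value lay only just above the highest wild-type value, and the difference was 0.27 ± 0.09 (SE; limma, adjusted p = 0.0343). Without gcn5 null replicate 1, its highest array, the difference was 0.16 (limma, adjusted p = 0.171). It passed no longer with the 5′ minus 3′ signal as a covariate (0.25, limma, adjusted p = 0.0748). Without wild-type replicate 1, or without gcn5 null replicate 1, the number of genes called in gcn5 null was 5 in place of 9. These counts are given without the share of all genes. MRPL20, MRPL22, MRPL25 and RSM28 were lost in both cases. MRPL20 was also lost without wild-type replicate 2, gcn5 null replicate 2 or gcn5 null replicate 3, MRPL22 without gcn5 null replicate 2, and RSM28 without wild-type replicate 3. MRPL31, MRP49, MRPL36, MRP20 and MRPL24 passed with any one of the 15 arrays left out.

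**Figure D1:**
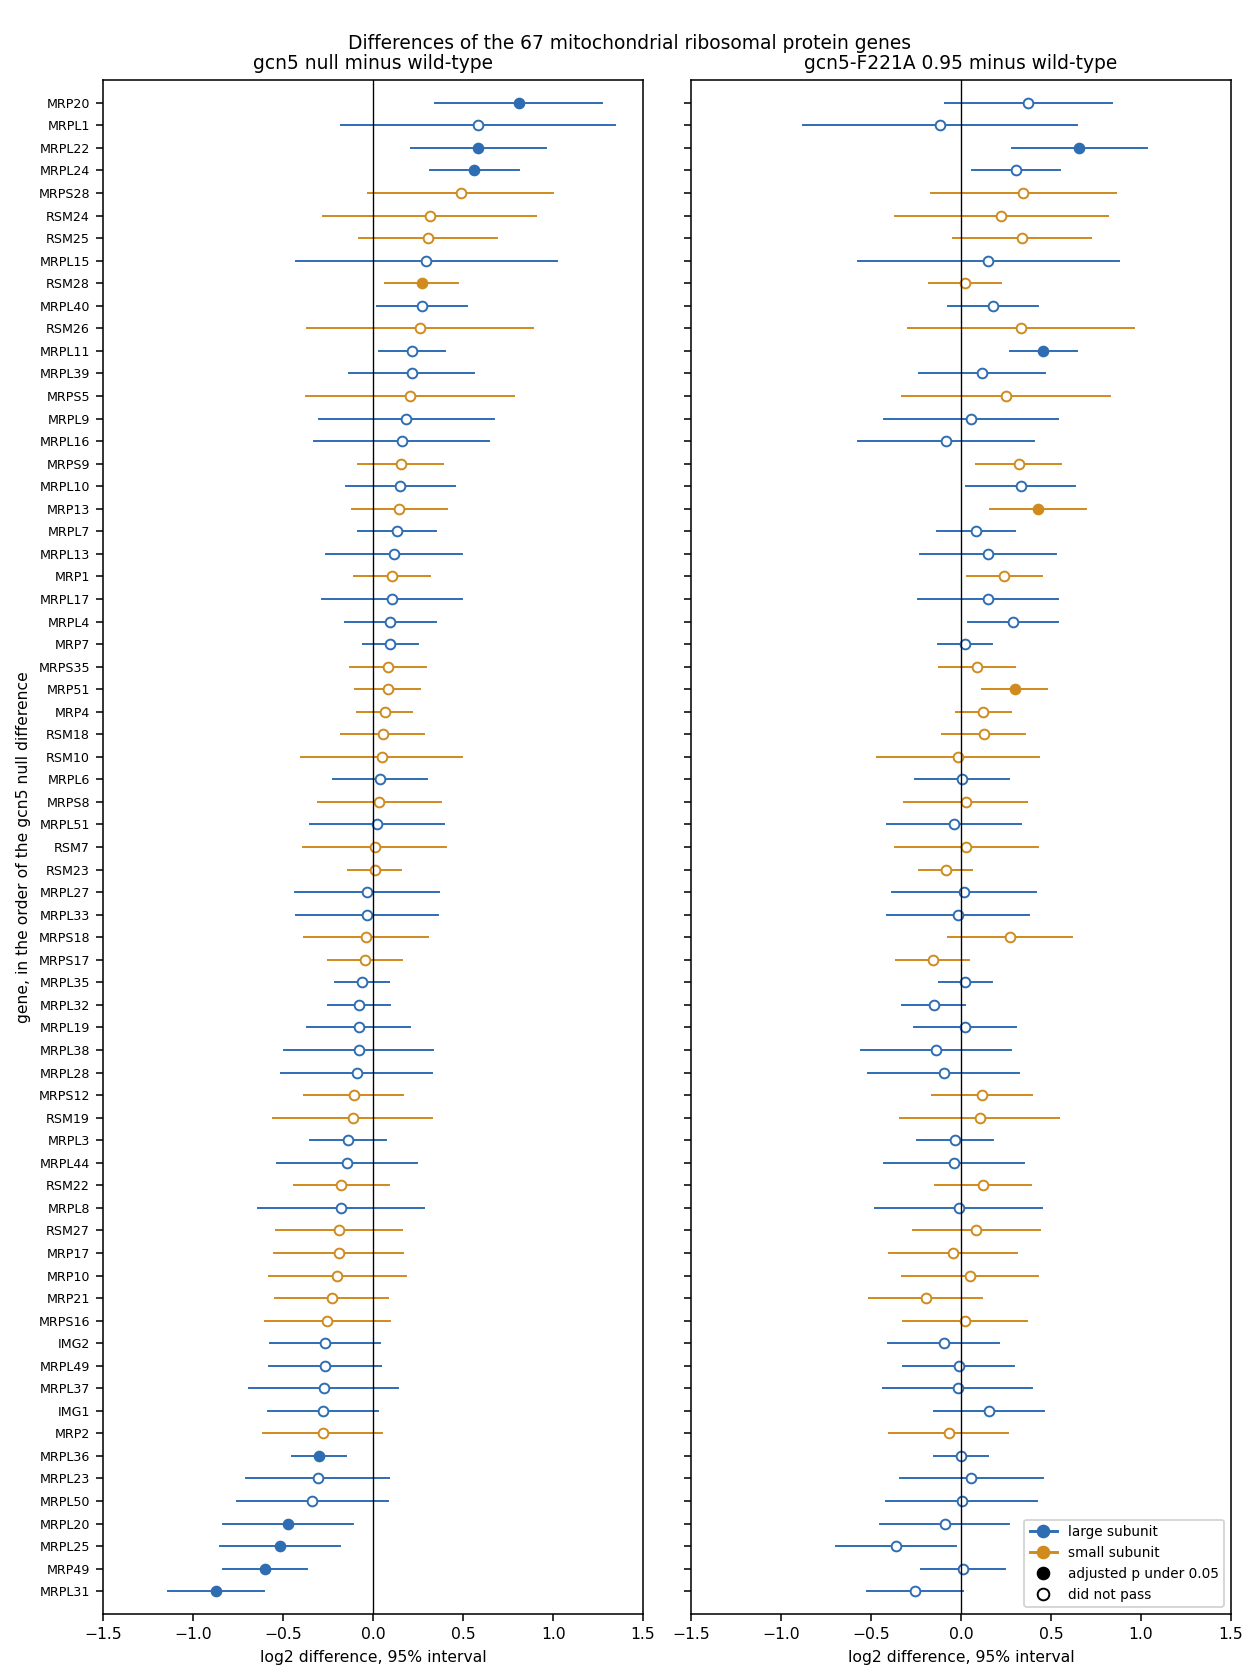
The log2 difference (x axis) of each of the 67 genes (rows) is shown with its 95% interval for gcn5 null minus wild-type (left) and strength 0.95 minus wild-type (right), both against the same wild-type arrays. Filled points passed an adjusted p of 0.05: 9 on the left, 4 of them above zero, and 4 on the right, all above zero, while most intervals cross zero.

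By subunit, the large subunit held 8 of the 9 calls in gcn5 null, with 3 of 39 genes higher and 5 lower and a median difference of -0.03. The small subunit had 1 of 28 genes higher, none lower by limma, and a median of 0.04. This division did not hold with the 5′ minus 3′ signal as a covariate. The small subunit genes MRPS5 (-0.36), RSM26 (-0.36) and RSM24 (-0.28) then also passed as lower (limma, adjusted p = 0.0209, 0.024 and 0.0399). Among the 41 genes with a bacterial counterpart 3 were higher and 1 was lower, and among the 25 without one 1 was higher and 4 were lower. Neither split was tested, and the medians of both classes lay within 0.04 of zero. IMG1 and IMG2, named for their need in keeping the mitochondrial genome intact, were below wild-type on average in gcn5 null without passing. IMG1, the counterpart of bacterial L19, read 11.22 ± 0.05 in gcn5 null and 11.50 ± 0.16 in wild-type (SD, n = 3 each), a difference of -0.28 (limma, adjusted p = 0.133). IMG2 read 10.86 ± 0.07 in gcn5 null and 11.12 ± 0.15 in wild-type (SD, n = 3 each), a difference of -0.27 (limma, adjusted p = 0.153).

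The inactive allele was compared next, at each promoter strength and as a slope over strength. At 0.32 none of the 67 genes passed limma's test, where 1.60% of all genes did, and 3 genes had an unadjusted p under 0.05. The 3 included MRPL11 and MRP13, with differences of 0.32 (limma, adjusted p = 0.101) and 0.41 (limma, adjusted p = 0.155). At 0.68 only MRPL11 passed, 1 of 67 genes where 12.4% of all genes did. At 0.95 the count was 4 of 67 genes, all higher than in wild-type, where 12.5% of all genes passed and 7.25% passed as higher. The slope likewise gave 4 of 67 genes, all rising with strength, where 15.7% of all genes passed and 8.39% passed as rising. The balance at 0.95 and for the slope depended on the fit. With the 5′ minus 3′ signal as a covariate, 4 genes rose and 3 fell over strength. Without the lowest 5′ minus 3′ array of each gcn5-F221A strain, 11 rose and 7 fell. At 0.95 each of these fits gave 4 genes higher and 2 lower, where 22.3% and 15.1% of all genes passed. The median differences of the 67 genes were 0.00, -0.02 and 0.03 at 0.32, 0.68 and 0.95, against 0.00, -0.01 and 0.00 for all genes. At 0.95 the interval of 1 gene and at 0.32 and 0.68 those of 2 genes each reached past a 2-fold change.

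MRPL11 (YDL202W, chromosome IV, 98475 to 99224) was the only one of the 67 genes to pass at both 0.68 and 0.95. It is the counterpart of bacterial L10, which anchors the stalk that recruits translation factors. It read 9.93, 10.05 and 9.96 in wild-type, 10.25, 10.25 and 10.40 at 0.32, 10.46, 10.17 and 10.31 at 0.68, and 10.42, 10.35 and 10.54 at 0.95. All 9 arrays with gcn5-F221A lay above all wild-type arrays, though the 3 strengths overlapped one another. The difference was 0.33 ± 0.09 at 0.68 (SE; limma, adjusted p = 0.0272) and 0.46 ± 0.09 at 0.95 (SE; limma, adjusted p = 0.00444). The slope was 0.43 ± 0.08 per unit of strength (SE; limma, adjusted p = 0.00515). In gcn5 null MRPL11 read 10.26, 10.17 and 10.15, which was 0.22 above wild-type without passing (limma, adjusted p = 0.0595). The call at 0.68 was lost without any one of the wild-type arrays and without replicate 3 at 0.68, whereas the calls at 0.95 and for the slope held with any one of the 15 arrays left out.

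MRPL22, already described as higher in gcn5 null, had the largest difference of the 67 genes at 0.95. It read 9.02, 9.26 and 9.38 in wild-type, 9.51, 9.48 and 9.14 at 0.32, 10.05, 9.35 and 9.91 at 0.68, and 9.75, 9.82 and 10.08 at 0.95. The low arrays at 0.32 and 0.68 were those with the lowest 5′ minus 3′ signal of their strain. The difference at 0.95 was 0.66 ± 0.17 (SE; limma, adjusted p = 0.0261), and the slope was 0.74 ± 0.17 per unit of strength (SE; limma, adjusted p = 0.0124). With the 5′ minus 3′ signal as a covariate the slope was 0.42 (limma, adjusted p = 0.00408). Without wild-type replicate 1 the slope was 0.65 (limma, adjusted p = 0.0543). The call at 0.95 was lost without wild-type replicates 1 or 2 or without replicates 2 or 3 at 0.95.

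MRP13 and MRP51, both of the small subunit, passed only at 0.95. MRP13 (YGR084C) has no bacterial counterpart and read 10.26, 10.07 and 10.16 at 0.95 against 9.68, 9.71 and 9.82 in wild-type, a difference of 0.43 ± 0.12 (SE; limma, adjusted p = 0.0382). MRP51 (YPL118W), known from genetic work on translation of mitochondrial messages through their leaders, read 10.48, 10.37 and 10.23 at 0.95 against 10.04, 10.14 and 9.99 in wild-type. Its difference was 0.30 ± 0.08 (SE; limma, adjusted p = 0.0353). Groups did not overlap for either gene, but both calls were fragile. With quantile normalization over S. cerevisiae probe sets alone neither passed (limma, adjusted p = 0.0518 for MRP13 and 0.0632 for MRP51). MRP13 passed in 6 and MRP51 in 9 of 15 fits that each left out an array. The adjusted p ranged from 0.0136 to 0.12 for MRP13 and from 0.0156 to 0.122 for MRP51 (limma), and both were lost when any wild-type array was the one left out. Both were also lost without replicates 1 or 2 at 0.95 and without gcn5 null replicate 2, and MRP13 without replicate 3 at 0.95 or gcn5 null replicates 1 or 3 as well.

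Among the comparisons of gcn5-F221A, MRPL24 and MRPS9 passed for the slope alone. MRPL24 averaged 8.73 ± 0.12 in wild-type cells, then 8.82 ± 0.10, 9.03 ± 0.25 and 9.03 ± 0.05 with rising strength (SD over 3 arrays), with a slope of 0.35 ± 0.11 (SE; limma, adjusted p = 0.0488). MRPS9 (YBR146W), the counterpart of bacterial S9, averaged 8.88 ± 0.11 in wild-type cells, then 9.05 ± 0.12, 9.18 ± 0.22 and 9.20 ± 0.08 with rising strength (SD over 3 arrays). Its slope was 0.35 ± 0.11 (SE; limma, adjusted p = 0.046). Both lay close to the threshold and passed in only 3 of 15 fits that each left out an array. Those 3 fits were the ones without replicate 1 or 2 at 0.68 for both genes and, in addition, without replicate 1 at 0.32 for MRPL24 and replicate 3 at 0.32 for MRPS9, so that leaving out any of the other arrays ended the call. With the 5′ minus 3′ signal as a covariate MRPL24 had a slope of 0.19 (limma, adjusted p = 0.141) and MRPS9 of 0.25 (limma, adjusted p = 0.12).

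**Figure D2:**
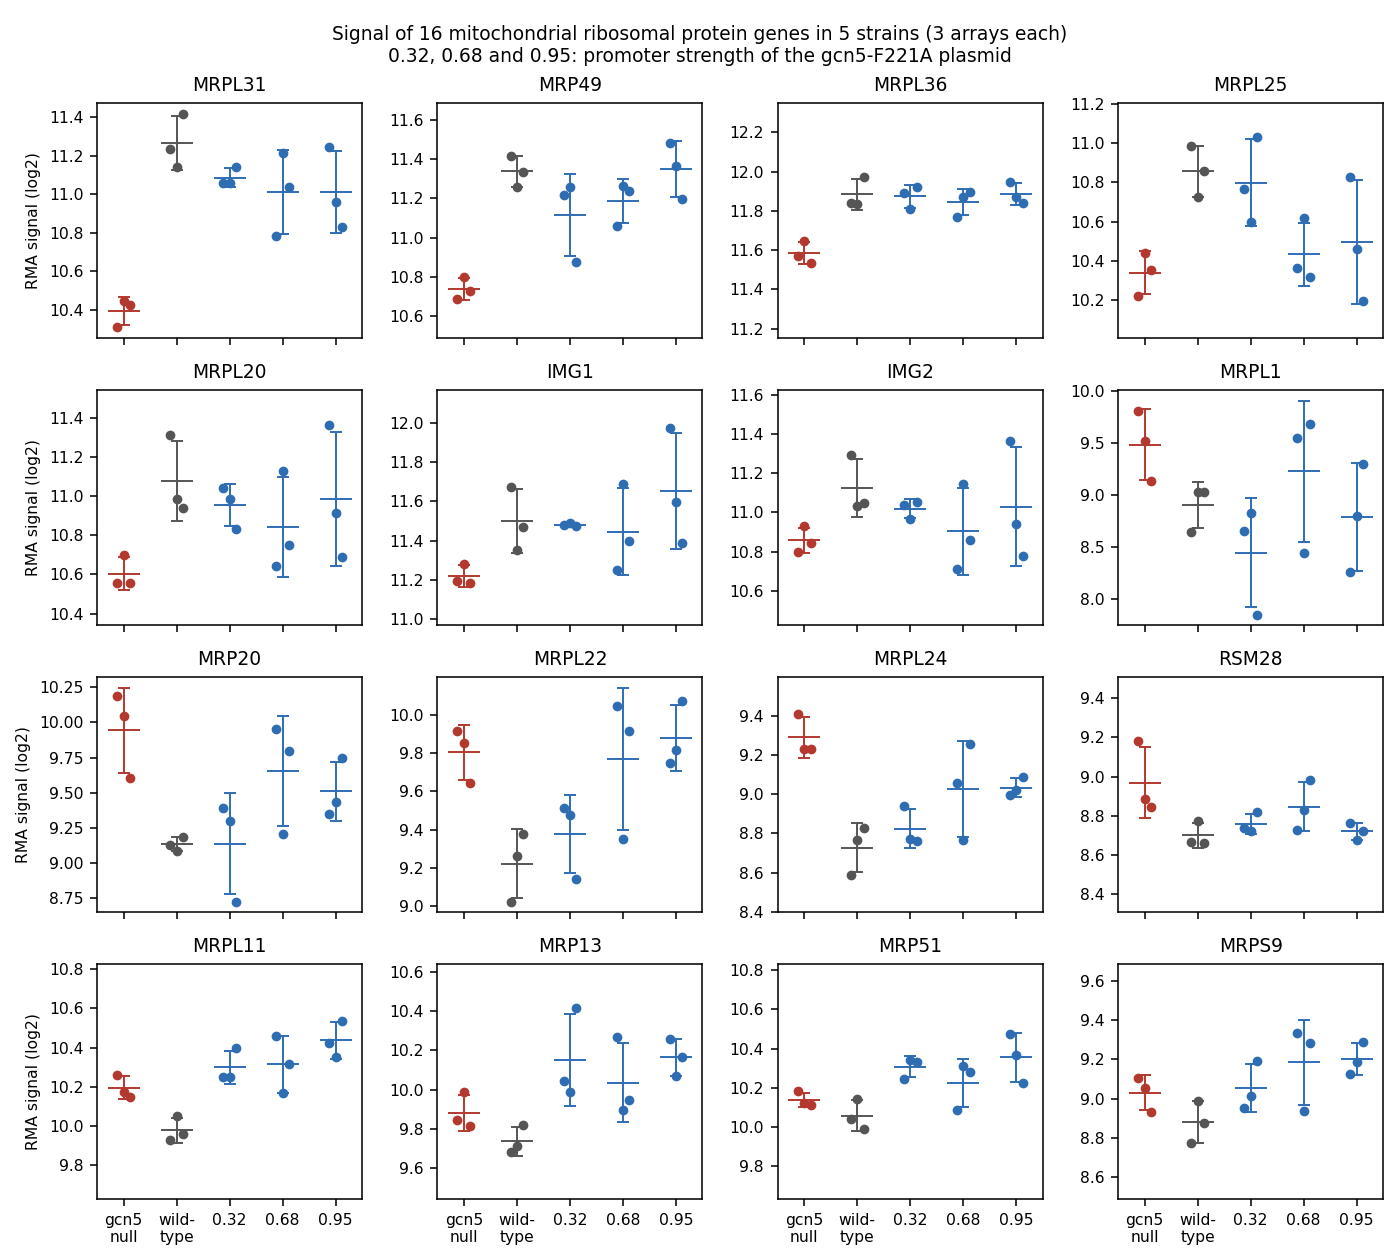
RMA signal on the log2 scale (y axis, at least 1.2 units high in each panel) of 16 genes in gcn5 null, wild-type and the 3 gcn5-F221A strains (x axis). Points are arrays and bars the mean and SD of 3 arrays. MRPL31, MRP49 and MRPL36 were low in gcn5 null. At 0.95 MRP49 and MRPL36 were close to wild-type, and MRPL31 stood at -0.26 from it without passing. MRPL11 was high in all gcn5-F221A strains, and MRPL1 was spread widely between arrays of the same gcn5-F221A strain.

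The strongest inactive allele and the deletion were then set against each other directly. Of the 67 genes 5 passed (7.46%), all higher at 0.95 than in gcn5 null, where 33.1% of all genes passed and 19.5% passed as higher. All 5 encode large subunit proteins. With the 5′ minus 3′ signal as a covariate, MRPS5 (0.31) and RSM26 (0.36) of the small subunit also passed as higher (limma, adjusted p = 0.0234 and 0.0122). MRPL31 read 11.24, 10.96 and 10.83 at 0.95 against 10.31, 10.44 and 10.42 in gcn5 null, a difference of 0.62 ± 0.12 (SE; limma, adjusted p = 0.00195). MRP49 read 11.48, 11.37 and 11.20 at 0.95 against 10.68, 10.80 and 10.73 in gcn5 null, a difference of 0.61 ± 0.11 (SE; limma, adjusted p = 0.000888). MRPL36 read 11.95, 11.87 and 11.84 at 0.95 against 11.57, 11.64 and 11.53 in gcn5 null, a difference of 0.30 ± 0.07 (SE; limma, adjusted p = 0.0047). These 3 genes, which fell in gcn5 null, stood at -0.26, 0.01 and 0.00 from wild-type at 0.95 and did not pass there (limma, unadjusted p of 0.0587, 0.909 and 0.973).

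The other differences were weaker. IMG1 read 11.97, 11.60 and 11.39 at 0.95 against 11.19, 11.28 and 11.18 in gcn5 null, a difference of 0.43 ± 0.14 (SE; limma, adjusted p = 0.0305). IMG1 was highest on replicate 1 at 0.95, the array with the lowest 5′ minus 3′ signal of that strain, and without it the difference was 0.27 (limma, adjusted p = 0.133). The call was also lost without replicate 2 at 0.95 or any one gcn5 null array. MRPL11 differed by 0.24 ± 0.09 (SE; limma, adjusted p = 0.0441) and passed in 4 of 15 fits that each left out an array. It did so only when replicate 3 at 0.32, replicates 1 or 2 at 0.68, or replicate 2 at 0.95 was left out. With every array centred on the median of S. cerevisiae genes, IMG1 and MRPL11 had differences of 0.37 and 0.18 and did not pass (limma, adjusted p = 0.0595 and 0.127). No member passed in opposite directions in gcn5 null and at 0.95 or for the slope.

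The most regular pattern of these genes lay between arrays of the same strain. When strain means were removed, a single axis carried 76.2% of the remaining variance of the 67 genes, against 51.2% for the first axis of all genes. The position of the 15 arrays on it followed their 5′ minus 3′ signal with strain means removed, with Pearson's r = 0.97 and Spearman's rho = 0.96. Without the 2 arrays farthest from the median r was 0.95, and over all genes the first axis gave r = 0.96. The points share their strain means, which were subtracted, so the 15 arrays are not 15 free values, and the relation is given as a description.

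The genes split into opposite blocks along this axis. For 15 genes r with the 5′ minus 3′ signal was above 0.8 and for 19 it was below -0.8, together 50.7% of the 67 against 22.5% of all genes. This was not particular to the 67 genes. Among related lists, r lay beyond 0.8 in either direction for 53 of 128 genes listed as cytoplasmic ribosomal proteins. It did so for 19 of 37 respiratory chain and ATP synthase genes and 4 of 10 mitochondrial ribosomal protein genes with other names. The first block had a median open reading frame of 846 bases and none shorter than 699, and held 10 large and 5 small subunit genes. The second had a median of 420 bases and held 12 large and 7 small subunit genes. RSM22, at 1887 bases, and MRPL3, at 1173 bases, were the long members of the second block. Over the 67 genes r rose with length (Spearman's rho = 0.61, across genes, which are not independent), whereas over all measured genes it did not (rho = -0.01).

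MRPL1 (YDR116C, chromosome IV, 682724 to 683581), the counterpart of the bacterial L1 stalk protein, lay at one end with r = 0.99. It is the only one of the 67 in the list of changed genes that the study drew from these arrays, so its choice is not independent of them. It read 9.80, 9.51 and 9.13 in gcn5 null and 8.64, 9.03 and 9.03 in wild-type. It read 8.65, 8.83 and 7.85 at 0.32, 9.55, 8.44 and 9.68 at 0.68, and 8.26, 8.80 and 9.30 at 0.95. The lowest value of each gcn5-F221A strain came from the array with the lowest 5′ minus 3′ signal. No comparison of MRPL1 passed, with differences of 0.58 in gcn5 null (limma, adjusted p = 0.209) and of -0.11 at 0.95 (limma, adjusted p = 0.891) and a slope of 0.17 (limma, adjusted p = 0.786). With the 5′ minus 3′ signal as a covariate its slope was -0.54 (limma, adjusted p = 0.00196).

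At the other end MRP10 had r = -0.93 and MRPS8, the counterpart of bacterial S8, r = -0.91. MRPL38, the counterpart of bacterial L14, had r = -0.90 and read 11.83, 11.80 and 12.33 at 0.32, 11.53, 12.08 and 11.65 at 0.68, and 12.15, 11.71 and 11.51 at 0.95. Here the same 3 arrays were the highest of their strains. Several genes that differed between strains did not follow the axis: r was -0.04 for MRP49, -0.25 for MRPL36, 0.37 for MRPL11 and 0.11 for RSM28. MRP20 (0.92), MRPL22 (0.95) and MRPL25 (-0.85) followed it closely. MRPL24 (0.79), MRPL31 (-0.62) and MRPL20 (-0.60), also called in gcn5 null, lay in between.

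**Figure D3:**
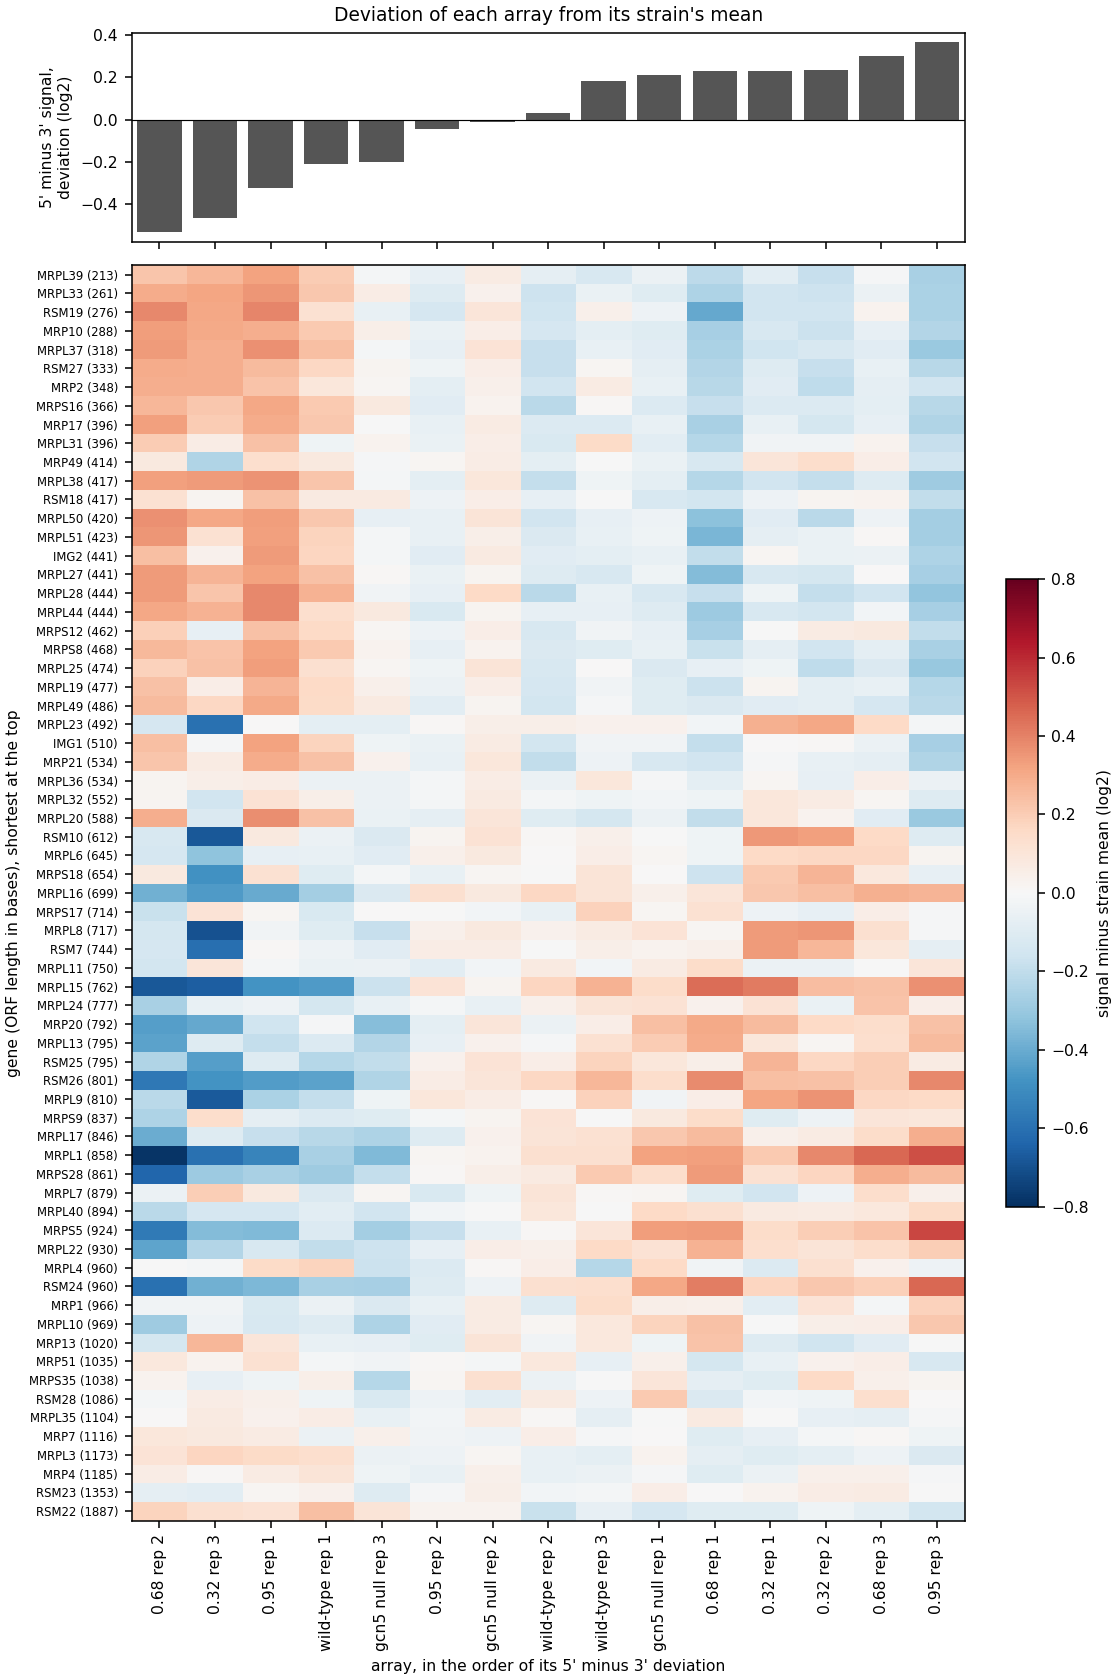
Colour gives the signal of each gene on each array minus the mean of that gene in its strain (log2), with the 15 arrays in the order of their 5′ minus 3′ deviation (bars, log2) and the 67 genes in the order of open reading frame length. Short genes are high and most genes of 699 to 969 bases low on the arrays at the left, where the deviation is lowest, and the colours turn at the right.

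Differences between strains were ordered by length as well. Across the 67 genes Spearman's rho between length and the difference in gcn5 null was 0.57, and across all genes it was -0.06. The 34 genes at or above the median length had a median difference of 0.15 in gcn5 null and the 33 shorter genes one of -0.19. The 5′ minus 3′ signal was higher than in wild-type in gcn5 null and at 0.68 and 0.95 and lower at 0.32. When it was added to the model as a covariate, rho in gcn5 null was -0.16 and 36 of the 67 genes changed the sign of their difference. Under that model 18 genes passed in gcn5 null, 8 higher and 10 lower, where 46.5% of all genes passed, and 6 of them were among the 9 named above. MRPL31 (-0.72), MRP49 (-0.59), MRPL36 (-0.27), MRP20 (0.38), MRPL24 (0.38) and MRPL22 (0.23) passed either way with the same sign. At 0.95 the 4 genes that passed without the covariate also passed with it, where 22.3% of all genes passed. In addition 2 genes passed as lower, MRPL1 (-0.53, limma, adjusted p = 0.000987) and MRPL16 (-0.33, limma, adjusted p = 0.0342). Because the signal differs between gcn5 null and wild-type without overlap, the covariate also takes up any strain difference that moves with it.

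**Figure D4:**
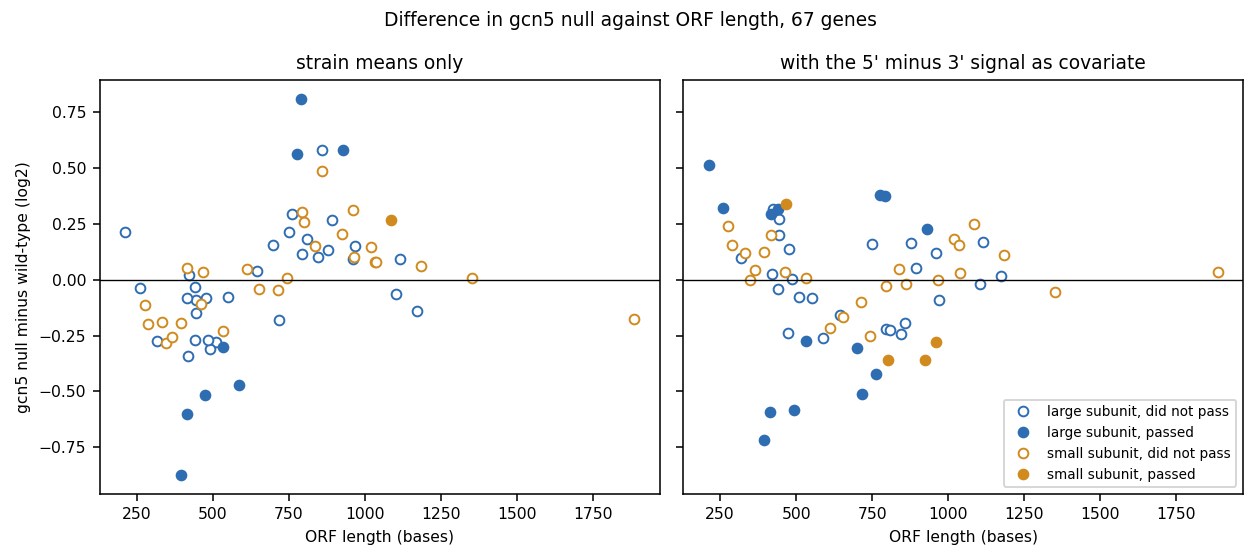
The difference between gcn5 null and wild-type (log2, y axis) of the 67 genes against open reading frame length in bases (x axis), from the model with strain means only (left) and with the 5′ minus 3′ signal added (right). Filled points passed an adjusted p of 0.05, 9 on the left and 18 on the right, and the order by length (rho 0.57) is absent on the right (rho -0.16).

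Leaving out the lowest 5′ minus 3′ array of each gcn5-F221A strain, an alternative chosen after seeing the data, raised the counts in gcn5 null, at 0.68 and for the slope. In gcn5 null 20 of 67 genes then passed, where 50.8% of all genes did, and the 9 named above were all among them. At 0.68 the count was 19 of 67, 12 higher and 7 lower, where 19.6% of all genes passed. In both comparisons every gene that was higher had an open reading frame of at least 750 bases and every gene that was lower had one of at most 588 bases.

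Genes that work beside the mitochondrial ribosome were counted from 8 lists, each to be read against all genes, of which 41.0% passed in gcn5 null (18.4% higher and 22.6% lower) and 15.7% for the slope (8.39% rising). Of 128 genes listed as cytoplasmic ribosomal proteins, 4 (3.12%) were lower and none higher in gcn5 null by limma, and none passed for the slope. The 128 include RPP1, which is not a ribosomal protein gene. Of 37 nuclear genes for the respiratory chain and ATP synthase, 9 were higher and 1 was lower in gcn5 null (27.0% in all), and 7 rose and none fell over strength (18.9%), with median differences of 0.10 and 0.20. SDH2, SDH1 and SDH4, subunits of succinate dehydrogenase, had the largest rises in gcn5 null. SDH1 averaged 9.85 in gcn5 null and 8.86 in wild-type (limma, adjusted p = 8.93e-05), and SDH2 and SDH4 were 1.01 and 0.95 above wild-type on the log2 scale (limma, adjusted p = 0.00458 and 0.0247). Within strains SDH2 and SDH4 followed the 5′ minus 3′ signal (r = 0.85 and 0.94), and SDH1 less so (r = 0.34). With that signal as a covariate SDH1 stood at 0.91 (limma, adjusted p = 0.000418), SDH2 at 0.56 (limma, adjusted p = 0.0109) and SDH4 at 0.31 (limma, adjusted p = 0.0754). Of the 37 genes 19 had r beyond 0.8 in either direction, and 8 were higher and 1 was lower in gcn5 null with the covariate, 6 of them among the 10 called without it. Over strength 13 of the 37 rose and 1 fell with the covariate, where 22.2% of all genes passed, and 6 of these were among the 7 called without it. COX9, a cytochrome c oxidase subunit, fell (log2 difference -0.70, limma, adjusted p = 0.000795), with r = -0.85 and a difference of -0.49 under the covariate (limma, adjusted p = 0.00122). SDH2, QCR2 of the cytochrome bc complex and CYT1, cytochrome c1, had slopes of 1.06, 0.79 and 0.58 (limma, adjusted p = 0.0101, 0.000819 and 0.015), and slopes of 0.66, 0.77 and 0.59 with the covariate (limma, adjusted p = 0.00975, 0.00204 and 0.0229). Of 10 mitochondrial ribosomal protein genes with other names, 2 were higher in gcn5 null (20.0%), PET123 (0.42, limma, adjusted p = 0.00716) and RML2 (0.29, limma, adjusted p = 0.00858), and RML2, the counterpart of bacterial L2, also rose over strength (0.51, limma, adjusted p = 0.00104).

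Of 12 genes listed under assembly of the particle, not all strictly assembly factors, 3 were higher and 2 lower in gcn5 null (41.7% in all, close to the share of all genes). The largest of these were RPM2, the protein part of mitochondrial RNase P (0.63, limma, adjusted p = 0.00236), and MRH4, a helicase (-0.49, limma, adjusted p = 0.00895, and -0.28 with the covariate, adjusted p = 0.043). YTA12 and AFG3, partners in a protease of the inner membrane, were higher by 0.44 and 0.20, and MRM1, an rRNA methyltransferase, was lower (-0.38). AFG3 did not pass with the covariate (0.18, limma, adjusted p = 0.0967). MRM2, another rRNA methyltransferase, was the only one to rise over strength (0.57, limma, adjusted p = 0.00257). Of 14 mitochondrial aminoacyl-tRNA synthetases 3 were higher and 1 lower in gcn5 null (28.6% in all) and none passed for the slope (limma). These were NAM2 (0.45, limma, adjusted p = 0.004), MST1 (0.44, limma, adjusted p = 0.00411) and MSY1 (0.24, limma, adjusted p = 0.034) as higher, and DIA4 (-0.48, limma, adjusted p = 0.0431) as lower, the last at -0.20 with the covariate (limma, adjusted p = 0.29). Of 9 translation factors 1 passed in gcn5 null and 1 for the slope (11.1% each). MEF1, an elongation factor, was higher in gcn5 null (0.40, limma, adjusted p = 0.00112) and TUF1, another, rose over strength (0.42, limma, adjusted p = 0.00492). Of 21 translational activators and membrane factors 3 were higher and 3 lower in gcn5 null (28.6% in all), and 3 rose over strength (14.3%), of which 1 passed with the covariate. AEP3, ATP22 and PET111 were higher (0.40, 0.36 and 0.25) and CBP6, MSS116 and CBP1 lower (-0.52, -0.38 and -0.29), and MSS51, AEP3 and OXA1 rose over strength (slopes 0.41, 0.35 and 0.34). PET111 did not pass in gcn5 null with the covariate (0.18, limma, adjusted p = 0.141). Of 8 genes for mitochondrial transcription and message control, PUF3, whose protein binds messages of mitochondrial proteins, was higher in gcn5 null (0.70, limma, adjusted p = 0.0208, and 0.36 with the covariate, adjusted p = 0.135). PUF3 was dim, with 4.88, 5.42 and 5.32 in wild-type and 6.06, 5.98 and 5.67 in gcn5 null. Its wild-type mean of 5.20 was close to the background level of 5.18, so this rise was measured from near background. HAP4, the activating subunit of the Hap complex that drives respiratory genes, fell over strength (slope -1.28, limma, adjusted p = 0.00774, and -1.27 with the covariate, adjusted p = 0.0142).

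**Figure D5:**
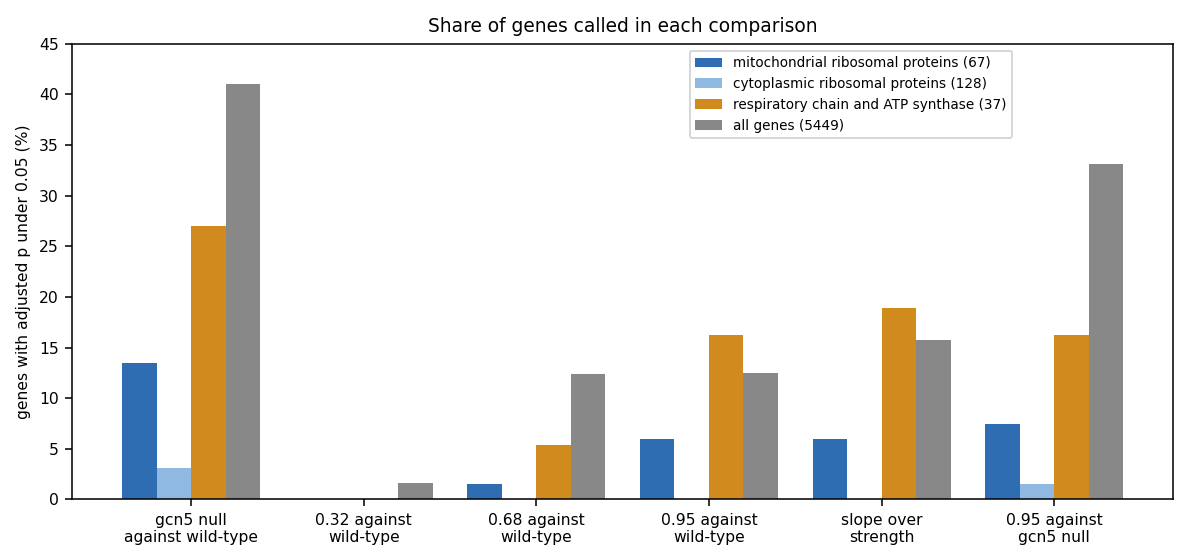
Share of genes with an adjusted p under 0.05 (%, y axis from 0) in each of 6 comparisons (x axis). Bars are the 67 mitochondrial ribosomal protein genes, 128 genes listed as cytoplasmic ribosomal proteins (RPP1 included), 37 respiratory chain and ATP synthase genes and all 5449 genes. The 67 genes reached 13.4% in gcn5 null and 5.97% at 0.95, below the bar of all genes in each comparison.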

How the data were processed

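The deposited log2 signals were made by the authors with RMA (background correction, quantile normalization and summary per probe set) from 15 Affymetrix Yeast 2.0 arrays, and were used as deposited. Of 10928 probe sets, 5498 named S. cerevisiae genes. Where a gene had several (47 genes) the brightest was kept, giving 5449 genes. Positions are those of RefSeq, assembly R64. Strain means and 6 contrasts were fitted over all 15 arrays with limma 3.58.1 in R 4.3.3 (lmFit, eBayes), with Benjamini-Hochberg adjustment over all 5449 genes and a threshold of 0.05. The slope weighted strengths 0, 0.32, 0.68 and 0.95. The fit was tested on simulated data. The 5′ minus 3′ signal came from 7 control transcripts. No 2 arrays held identical values. The number of arrays limits the precision. Replicates are biological per the labels, with no statement of how they were separated, so p-values measure the spread between these samples.

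The genes and lists were chosen with earlier results of these data known. Genes named are, for each comparison, up to 5 called rises and falls with the largest differences, or the 2 of smallest p where none was called. The dimmest and brightest 3, MRPL1, IMG1, IMG2 and up to 3 called genes per list and direction were added, with genes shown to explain the arrays' pattern chosen after their values were seen. Alternatives were median centring, quantile normalization of S. cerevisiae probe sets, a filter on dim genes, a variance trend, array weights, means of probe sets, a replicate block, only the arrays compared, each array left out and, after seeing the data, the 5′ minus 3′ signal as a covariate and its lowest arrays left out.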

Additional observations from a re-analysis of the deposited data

Results flagged for a closer look

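For 5 of the 67 genes (7.46%), the effect of gcn5-F221A at strength 0.95 differed from that of the GCN5 deletion. The difference itself was tested (limma, adjusted over 5449 genes), and each of the 5 was higher at 0.95 than in gcn5 null. Of all genes 33.1% passed this test, and 19.5% passed as higher. The log2 difference was 0.62 for MRPL31, 0.61 for MRP49, 0.43 for IMG1, 0.30 for MRPL36 and 0.24 for MRPL11.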

How the results depend on the processing

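Over 23 calls of single genes, each refitted under 25 alternatives, 468 of 575 refits kept the call, 107 lost it and none changed sign. The counts of the 67 genes called moved more. With array weights they were 19 in gcn5 null, 2 at 0.68, 17 at 0.95, 15 for the slope and 23 for 0.95 against gcn5 null, where 60.6%, 23.7%, 39.9%, 39.0% and 62.9% of all genes passed. With only the arrays compared they were 19 in gcn5 null, 0 at 0.68, 2 for the slope and 10 for 0.95 against gcn5 null, where 54.4%, 0.0734%, 10.3% and 42.5% of all genes passed. With the 5′ minus 3′ signal as a covariate they were 18 in gcn5 null, 1 at 0.32, 3 at 0.68, 7 for the slope and 11 for 0.95 against gcn5 null, where 46.5%, 2.77%, 22.2%, 22.2% and 44.0% of all genes passed. Without the lowest 5′ minus 3′ array of each gcn5-F221A strain they were 20 in gcn5 null, 19 at 0.68 and 18 for the slope, where 50.8%, 19.6% and 22.6% of all genes passed. Quantile normalization over S. cerevisiae probe sets gave 2 at 0.95 and 2 for the slope, and median centring gave 2 for the slope, where 12.1%, 15.9% and 16.3% of all genes passed. Leaving out each array in turn gave 5 to 11 in gcn5 null, 0 to 1 at 0.32, 0 to 6 at 0.68, 1 to 6 at 0.95, 1 to 8 for the slope and 3 to 8 for 0.95 against gcn5 null. These ranges are given without the share of all genes, so they do not show whether the 67 genes moved apart from the rest. Why the counts moved was not tested. The replicate numbers do not pair the arrays: deviations from strain means correlated at -0.07 on average where numbers matched and at 0.04 where they did not, and 5 of 15 arrays correlated best with their own number. With a replicate block the counts were 8 in gcn5 null, 0 at 0.32, 1 at 0.68, 2 at 0.95, 2 for the slope and 4 for 0.95 against gcn5 null. They too are given without the share of all genes.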
